A study of Mus musculus with 16 samples.

Results

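The collagen genes of mouse gonadal fat were taken as all genes whose symbol is Col, a number, the letter a and a number, so that each encodes 1 chain of a collagen. The deposited table held 44 such genes among 24454, of which 11 encode fibrillar chains, 8 chains of basement membrane collagens, 6 chains of type VI collagen and 19 other collagens. The counts allowed a test for 41 of them. Col10a1, Col9a1 and Col9a2 were too low to be tested.

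The fat came from lean males of the inbred strain C57BL/6J, aged 16 weeks and fed standard chow. The mice had sham surgery or subdiaphragmatic vagotomy (sDVX), in which the vagus is cut on the abdominal side of the diaphragm. Infusion began 4 weeks later: vehicle, or 1 nmol per day of SHU9119, a peptide that blocks melanocortin receptors, was given into the cerebral ventricles for 2 weeks, with calorie intake matched between the mice. The series asks whether brain melanocortin receptors act on fat through the vagus nerve independently of energy intake. The 4 groups, named Sham_Veh (sham, vehicle), Sham_SHU (sham, SHU9119), VX_Veh (sDVX, vehicle) and VX_SHU (sDVX, SHU9119), held 4 libraries of polyadenylated RNA each. Where the labels do not tie a library to a mouse of its own, as here, p-values measure only the spread between these libraries, which may be technical.

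Library totals ran from 20425295 to 30889052 counts, and the 44 collagen genes together took 0.533% to 1.11% of them. This share was 0.533% to 0.808% in the 8 vehicle libraries and 0.809% to 1.11% in the 8 SHU9119 libraries. Adipocyte markers were abundant in every library, with 10 of 10 detected and a sum of 18010 to 53460 CPM (counts per library total of 1e+06, after scaling). The sum was lowest in VX_Veh1. Transcripts of neighbouring tissue stood apart in 6 libraries: epididymis markers summed to 511 to 10330 CPM in Sham_Veh3, Sham_Veh4, Sham_SHU3, Sham_SHU4, VX_Veh4 and VX_SHU4, and to at most 82.5 CPM in the other 10. Testis markers reached 2604 CPM in Sham_Veh4 and 1272 CPM in Sham_SHU3. Markers of motile cilia summed to 6.36 to 1112 CPM, with the highest value in VX_Veh1.

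Collagens are built from chains wound into a triple helix. Fibrillar collagens form the tension-bearing fibrils of connective tissue, and type V chains sit inside type I fibrils and set their diameter. Type IV collagen is the network of basement membranes, which surround each fat cell and each capillary, and types XV and XVIII are linked to these membranes. Type VI collagen forms beaded filaments between the basement membrane and the fibrils and is abundant around adipocytes. Other collagens decorate fibrils, anchor epithelia or span cell membranes.

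The sequence just upstream of a gene holds its core promoter, and it is shown for 5 of the collagen genes that rose with SHU9119, to place the members described below: the 3 chains of classical type VI collagen, the fibrillar chain Col3a1, and Col5a3, the fibrillar chain with the largest fold change. RefSeq sequences on GRCm38.p6 (mm10) were at hand for 35 of the 44 genes. Each line gives bases outside annotated exons, 5′ to 3′ on the strand of the gene, with searched motif letters in capitals.
Col3a1, chr1:45311338-45311537, plus strand: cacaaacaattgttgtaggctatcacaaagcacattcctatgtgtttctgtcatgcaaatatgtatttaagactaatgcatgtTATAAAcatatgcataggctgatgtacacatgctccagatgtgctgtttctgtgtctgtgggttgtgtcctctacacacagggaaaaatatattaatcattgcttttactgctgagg
Col5a3, chr9:20815118-20815317, minus strand: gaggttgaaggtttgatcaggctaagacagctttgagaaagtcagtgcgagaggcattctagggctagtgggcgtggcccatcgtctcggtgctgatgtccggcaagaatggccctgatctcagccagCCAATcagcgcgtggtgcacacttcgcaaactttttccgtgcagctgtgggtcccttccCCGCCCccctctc
Col6a1, chr10:76726169-76726294, minus strand: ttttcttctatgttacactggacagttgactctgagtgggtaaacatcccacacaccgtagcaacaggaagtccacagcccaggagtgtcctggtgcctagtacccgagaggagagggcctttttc
Col6a2, chr10:76623631-76623830, minus strand: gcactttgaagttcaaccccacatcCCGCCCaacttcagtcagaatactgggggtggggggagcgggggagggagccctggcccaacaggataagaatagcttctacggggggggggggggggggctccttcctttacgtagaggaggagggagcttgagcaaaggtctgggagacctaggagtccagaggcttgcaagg
Col6a3, chr1:90844002-90844201, minus strand: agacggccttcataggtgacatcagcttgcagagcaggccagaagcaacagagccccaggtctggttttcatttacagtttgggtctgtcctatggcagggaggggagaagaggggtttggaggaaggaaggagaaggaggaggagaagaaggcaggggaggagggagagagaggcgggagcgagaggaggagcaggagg
The stretches of Col3a1 and Col6a2 end 1 base before the RefSeq start. Those of Col5a3, Col6a3 and Col6a1 end 51, 31 and 125 bases before it, since annotated exons or the gene span lie nearer. For Col5a3 and Col6a3 the start used (20815067 and 90843971) lies inside the RefSeq gene span given below. The capitals mark TATAAA in Col3a1. They mark CCAAT in Col5a3, and in Col5a3 and Col6a2 a match to GGGCGG, which lies on the strand opposite to the printed one. The stretches of Col6a1 and Col6a3 held none of the searched letters. In the 250 bases upstream, on both strands, CCAAT occurred in 13 of the 35 collagen genes and in 33.8% of all 32851 promoters of that length, TATAAA in 5 of 35 and 12.4%, GGGCGG in 21 of 35 and 32.7%, and TGANTCA in 1 of 35 (Col6a1) and 6.75%. A gene was counted when any of its promoters matched, whereas the percentages are shares of single promoters, so these are unlike measures. No motif contains another, and a match describes letters, not a bound site. Of the 9 collagen genes that passed the test below, 7 had a sequence, and CCAAT was found in 1 of the 7, TATAAA in 1, GGGCGG in 3 and TGANTCA in 1.

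The widest comparison set both SHU9119 groups against both vehicle groups, averaged over the surgeries. In it 9 of the 41 collagen genes rose and 0 fell, at an adjusted p under 0.05 by edgeR's quasi-likelihood test. Among all 16682 genes tested, 1.50% rose and 0.366% fell. The 9 were the fibrillar chains Col1a1, Col3a1, Col5a1, Col5a2 and Col5a3, the type VI chains Col6a1, Col6a2 and Col6a3, and the basement membrane gene Col15a1. Their fold changes ran from 1.34 (Col1a1) to 2.07 (Col5a3). None of the 16 tested genes outside the fibrillar, basement membrane and type VI classes passed. In whole tissue, more cells of a type and more RNA per cell cannot be told apart.

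**Figure D1:**
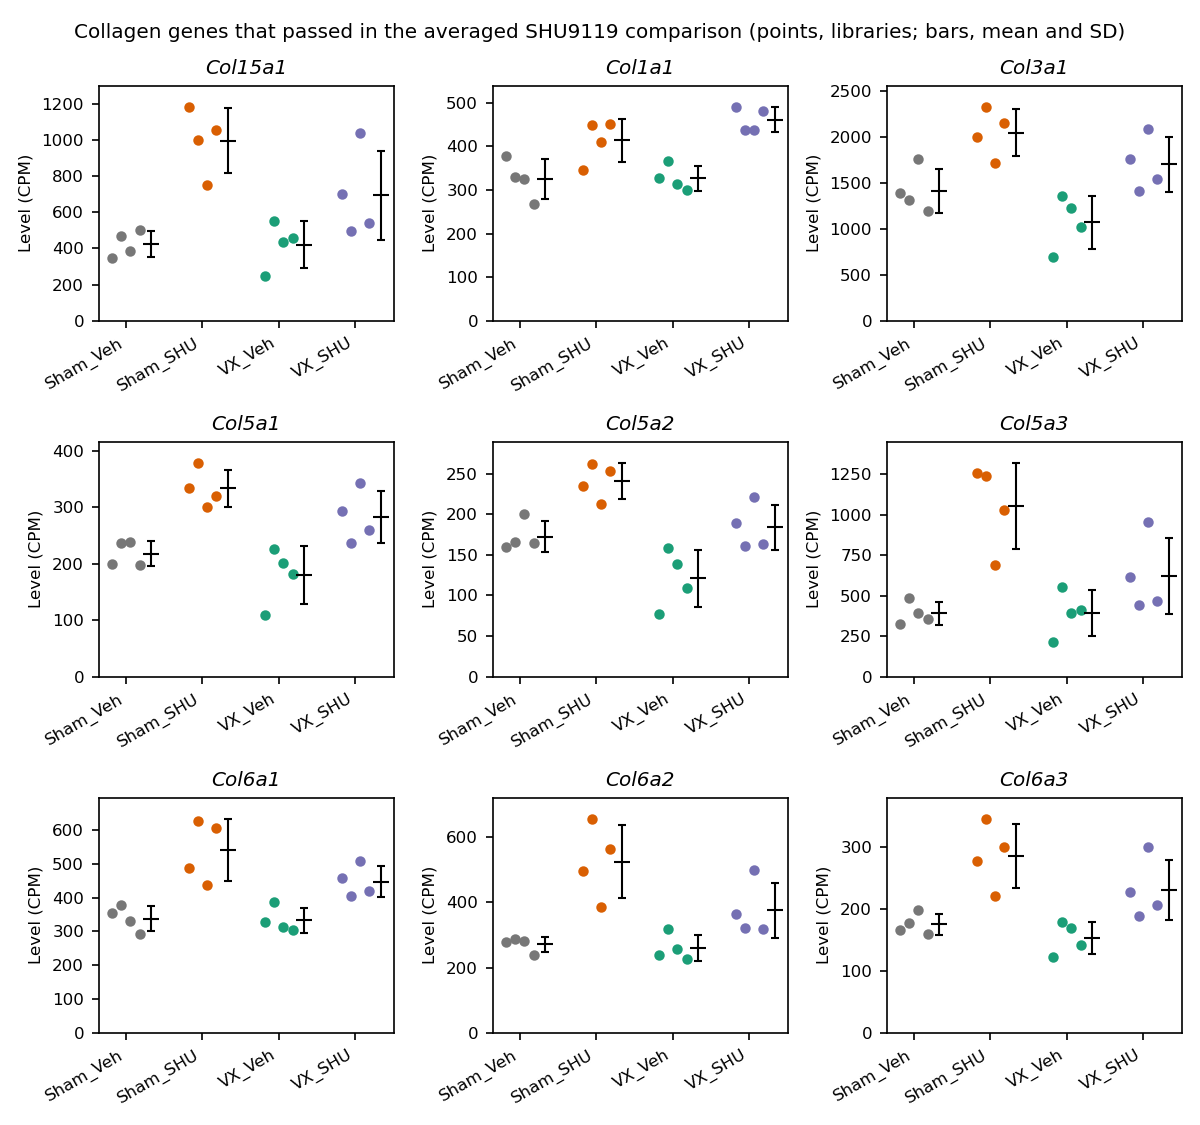
Level in CPM (vertical axis, from 0) of the 9 collagen genes that passed in the averaged SHU9119 comparison, with 1 point per library in 4 groups and the mean and SD as a bar beside the points. The SHU9119 points lie above the vehicle points within both surgeries for Col5a1, Col5a2, Col6a1, Col6a2 and Col6a3, while the groups overlap within 1 surgery for the other 4.

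Type I collagen, the main fibril protein of connective tissue, joins 2 products of Col1a1 to 1 of Col1a2. Col1a1 (chromosome 11, 94936224 to 94953042) stood at 379, 330, 326 and 267 CPM in Sham_Veh, 345, 449, 411 and 451 in Sham_SHU, 327, 366, 315 and 299 in VX_Veh, and 490, 437, 437 and 482 in VX_SHU (replicates 1 to 4). Its SHU9119 libraries lay above all vehicle libraries after sDVX, and overlapped them after sham surgery. Col1a1 rose by 0.42 ± 0.0796 (SE, log2; edgeR adjusted p = 0.0324), the smallest change of the 9. Col1a2 (chromosome 6, 4505618 to 4541543) averaged 748 CPM with SHU9119 and 672 CPM with vehicle, and its log2 difference, 0.15 ± 0.0799, missed the threshold (edgeR adjusted p = 0.224).

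Col3a1 (chromosome 1, 45311538 to 45349706) encodes the only chain of type III collagen, a fibril common in soft tissue. Its levels were 1395, 1310, 1755 and 1197 CPM in Sham_Veh, 1996, 2323, 1721 and 2147 in Sham_SHU, 688, 1352, 1228 and 1017 in VX_Veh, and 1764, 1412, 2090 and 1537 in VX_SHU. The groups did not overlap after sDVX, and after sham surgery Sham_Veh3 lay above Sham_SHU3. Col3a1 rose by 0.60 ± 0.140 (SE, log2; edgeR adjusted p = 0.0491), a fold change of 1.52.

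Type V collagen, which nucleates fibrils, is made of the products of Col5a1, Col5a2 and Col5a3. Col5a1 (chromosome 2, 27886381 to 28039510) stood at 199.5, 236, 238 and 198 CPM in Sham_Veh, 335, 378, 301 and 320.4 in Sham_SHU, 109, 227, 202 and 183 in VX_Veh, and 294, 236, 343 and 261 in VX_SHU. Col5a2 (chromosome 1, 45374331 to 45503282) stood at 160.1, 166, 201 and 164 CPM, 235, 262, 213 and 254 CPM, 77.4, 159, 138 and 109.7 CPM, and 189, 161, 221 and 163 CPM in the same order. For both genes every SHU9119 library lay above every vehicle library of the same surgery, although VX_SHU2 exceeded the highest VX_Veh library by little. Col5a1 rose by 0.63 ± 0.130 (SE, log2; edgeR adjusted p = 0.0384) and Col5a2 by 0.54 ± 0.127 (edgeR adjusted p = 0.0491).

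Col5a3 (chromosome 9, 20770050 to 20815117), a type V chain, had the largest fold change of the 9. It stood at 327, 488, 395 and 354 CPM in Sham_Veh and at 1258, 1242, 691 and 1028 CPM in Sham_SHU. After sDVX it stood at 212, 557, 391 and 412 CPM with vehicle and 614, 445, 959 and 469.5 CPM with SHU9119. The groups were apart after sham surgery and overlapped after sDVX, where VX_SHU2 and VX_SHU4 lay below VX_Veh2. Col5a3 rose by 1.05 ± 0.214 (SE, log2; edgeR adjusted p = 0.0384), a fold change of 2.07 with a 95% interval of 0.59 to 1.51 on the log2 scale.

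The 5 other fibrillar genes were low, with means over all libraries from 0.839 CPM (Col11a1) to 10.7 CPM (Col27a1), and none passed by edgeR. They are the cartilage chains Col2a1, Col11a1 and Col11a2 and the chains Col24a1 and Col27a1. In the averaged comparison 1 of the 5, Col24a1, had a positive difference. Limma-voom called Col27a1 lower (11.9% of all genes). The median log2 difference was 0.42 over the 11 fibrillar genes, −0.0051 over the 8 basement membrane genes and 0.22 over the 6 type VI genes. Over all 41 tested collagen genes it was −0.17, with 19 positive and 22 negative, and over all genes tested it was −0.03.

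Of the basement membrane genes, only Col15a1 (chromosome 4, 47207655 to 47313167) passed among the 8 tested. Type XV collagen links basement membranes to the fibrils around them. Its gene stood at 348, 467, 386 and 504 CPM in Sham_Veh, 1183, 1003, 754 and 1055 in Sham_SHU, 245, 551, 433 and 459 in VX_Veh, and 703, 499, 1039 and 540.0 in VX_SHU. The lowest Sham_SHU library exceeded the highest Sham_Veh library, while VX_SHU2 and VX_SHU4 lay below VX_Veh2. Col15a1 rose by 0.97 ± 0.186 (SE, log2; edgeR adjusted p = 0.0334), a fold change of 1.97.

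The common type IV chains came close to the threshold without passing it by edgeR. Col4a1, which with Col4a2 builds the type IV network, stood at 1061, 1226, 1894 and 1191 CPM in Sham_Veh, 2519, 2736, 1876 and 2243 in Sham_SHU, 494, 1285, 1328 and 958 in VX_Veh, and 1413, 1237, 2090 and 1203 in VX_SHU. Its log2 difference was 0.68 ± 0.204 (SE; edgeR adjusted p = 0.0759), with the high Sham_Veh3 above Sham_SHU3. Col4a2, the partner chain, stood at 686, 815, 1078 and 713 CPM, 1608, 1764, 1184 and 1377 CPM, 378, 864, 874 and 676 CPM, and 959.7, 865, 1478 and 776 CPM in the same order of groups. Its groups were apart after sham surgery and overlapped after sDVX, and its log2 difference was 0.70 ± 0.188 (SE; edgeR adjusted p = 0.0626). Both Col4a1 and Col4a2 were called higher by DESeq2's Wald test and by limma-voom (8.15% and 11.5% of all genes). Without the 6 libraries with epididymis or testis markers, edgeR called Col4a2 higher (11.5% of all genes).

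Col4a1 (chromosome 8, 11198423 to 11312889) and Col4a2 (11312805 to 11449287) overlap by 85 bases in RefSeq. Col4a3 and Col4a4, on chromosome 1, overlap by 114 bases, and Col4a5 and Col4a6 lie 1.3 kb apart on the X chromosome. The strand setting of the counting is not given in the sources used here, so reads from the shared ends cannot be told apart. Col18a1, the type XVIII gene whose product releases endostatin, averaged 173 CPM with SHU9119 and 146 CPM with vehicle, and its log2 difference was 0.23 ± 0.0877 (SE; edgeR adjusted p = 0.111). The chains of the specialised type IV networks, Col4a3 to Col4a6, had negative differences from −0.24 (Col4a5) to −1.27 (Col4a3), none of which passed by edgeR (smallest edgeR adjusted p = 0.130). Limma-voom called Col4a3, Col4a4 and Col4a6 lower (11.9% of all genes). The same genes were called lower by edgeR without the 6 libraries with epididymis or testis markers (12.9%).

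Of type VI collagen, the 3 chains of the classical trimer rose and the 3 later-described chains, Col6a4, Col6a5 and Col6a6, did not pass. Col6a1 (chromosome 10, 76708792 to 76726044) stood at 354, 377, 330.3 and 292 CPM in Sham_Veh, 489, 629, 438 and 607 in Sham_SHU, 329.6, 387, 313 and 305 in VX_Veh, and 459, 406, 508 and 419 in VX_SHU. Col6a2, its neighbour 85.2 kb away (chromosome 10, 76595756 to 76623630), stood at 277, 287, 282 and 238 CPM, 497.5, 656, 387 and 563 CPM, 239.6, 317.5, 257 and 228 CPM, and 366, 322, 499 and 317.9 CPM in the same order. Every SHU9119 library lay above every vehicle library of the same surgery for both genes, by a narrow margin for Col6a2 in VX_SHU4.

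Col6a1 rose by 0.55 ± 0.0911 (SE, log2) and Col6a2 by 0.74 ± 0.123, each with an edgeR adjusted p of 0.0264, the smallest of the collagen genes. Col6a3 (chromosome 1, 90766860 to 90844001), which encodes the long chain cleaved to endotrophin, stood at 166, 177, 198.5 and 159 CPM in Sham_Veh, 277, 345, 220.1 and 299.8 in Sham_SHU, 122, 179, 169 and 142 in VX_Veh, and 227, 189, 299 and 207 in VX_SHU. It followed the same order, with no overlap within either surgery. Col6a3 rose by 0.65 ± 0.117 (SE, log2; edgeR adjusted p = 0.0318), a fold change of 1.57.

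Col6a5 and Col6a6 lie 27.8 kb apart on chromosome 9 and encode chains that can stand in for the Col6a3 chain. Col6a5 stood at 321, 291, 232 and 156 CPM in Sham_Veh, 79.97, 35.0, 218 and 138 in Sham_SHU, 183, 159.8, 184 and 259 in VX_Veh, and 292, 250.2, 68.5 and 427 in VX_SHU. The SHU9119 libraries were both the lowest and the highest, and the averaged log2 difference was −0.34 ± 0.370 (SE; edgeR adjusted p = 0.574). Col6a6 stood at 42.6, 52.2, 46.8 and 29.1 CPM, 22.9, 14.4, 36.8 and 25.1 CPM, 18.2, 32.0, 29.7 and 30.5 CPM, and 53.0, 38.7, 27.1 and 46.2 CPM in the same order of groups. Its averaged log2 difference was −0.10 ± 0.201 (SE; edgeR adjusted p = 0.767).

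The 16 tested genes of the remaining collagens had a median log2 difference of −0.42 and none passed by edgeR with all libraries. Without the 6 libraries with epididymis or testis markers, edgeR called Col13a1, Col16a1, Col23a1 and Col8a2 lower (12.9% of all genes). DESeq2's Wald test called Col8a1 higher and Col16a1, Col8a2 and Col9a3 lower (8.15% and 8.59% of all genes). Limma-voom called the same genes in the same directions, and also Col25a1 lower (11.5% and 11.9%). Col9a3, a fibril-decorating chain of cartilage, came closest by edgeR with all libraries, at −1.02 ± 0.293 (SE; edgeR adjusted p = 0.0700). Its level was only 0.647 CPM with SHU9119 and 1.31 CPM with vehicle. Col16a1, which sits on fibrils, averaged 21.2 CPM with SHU9119 and 41.4 CPM with vehicle (−0.95 ± 0.319, edgeR adjusted p = 0.0902), and Col8a2, a network chain of the corneal endothelium, 6.53 and 26.3 CPM (−2.01 ± 0.693, edgeR adjusted p = 0.0949).

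The abundant collagen genes mostly had positive differences and the low ones negative, a split also seen over all genes. Of the 14 collagen genes with a mean of at least 100 CPM, a limit chosen after the values were seen, 13 had a positive averaged difference and 9 rose, with a median log2 difference of 0.62. Of the 27 below it, 6 had a positive difference, with a median of −0.46. Of all 1978 genes at or above this level, 69.3% had a positive difference and 4.10% were called higher, with a median of 0.10. Of the 14704 below it, 41.3% had a positive difference and 1.16% were called higher, with a median of −0.06.

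The calls of this comparison depended on the libraries kept, and were 0 with the cilia markers as a covariate. Leaving out 1 library gave 0 to 11 collagen calls (10 higher and 1 lower without Sham_SHU3, with 6.44% and 3.14% of all genes), with 0 without Sham_Veh3, Sham_SHU2, Sham_SHU4, VX_Veh3, VX_SHU1 or VX_SHU3, 1 without Sham_Veh1 and 2 without Sham_Veh2 or Sham_SHU1. In the 9 fits with 0 to 2 calls, 3 to 34 of all genes passed, and the 9 differences stayed positive in every fit that left out 1 library. The cilia markers averaged 278 ± 189.6 CPM in Sham_Veh, 53.2 ± 68.2 in Sham_SHU, 423 ± 477 in VX_Veh and 58.6 ± 83.9 in VX_SHU (SD, n = 4), with 12 of 12 tested markers lower with SHU9119 and none called. DESeq2's Wald test called 12 collagen genes higher and 3 lower (8.15% and 8.59% of all genes), the 9 among them. Limma-voom called 12 higher and 8 lower (11.5% and 11.9%). With the cilia sum as a covariate the 9 genes kept positive differences, from 0.40 (Col5a2) to 0.74 (Col5a3), and 0 of the 41 collagen genes and 0 of all 16682 genes passed. Because the mean cilia sum itself differed between the infusions, a fit with this covariate cannot cleanly tell the 2 apart. With this covariate in the 10 libraries below the epididymis and testis limit, a fit added after the data were seen, 4 of the 9 were positive and 5 were between −0.055 (Col3a1) and −0.033 (Col5a3), and again 0 genes passed. Without the 6 libraries with epididymis or testis markers, 9 collagen genes rose and 7 fell (11.5% and 12.9% of all genes), and 8 of the 9 were again among those that rose.

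Marker sums of other cell types are given beside these results. Adipocyte markers averaged 35820 ± 6845 CPM in Sham_Veh, 46020 ± 7979 in Sham_SHU, 29390 ± 7944 in VX_Veh and 38430 ± 8280 in VX_SHU (SD, n = 4), and stromal markers, which hold no collagen gene, 10120 ± 596, 8680 ± 805, 7671 ± 1720 and 9182 ± 1293. The stromal sum was mostly that of 1 gene, Gsn, at 4189 to 9380 CPM over the libraries. The next highest stromal marker, Dpt, reached at most 542 CPM. In the averaged comparison 10 of 10 adipocyte, 5 of 12 stromal, 10 of 10 endothelial, 4 of 9 mural, 9 of 9 macrophage, 3 of 8 Schwann cell, 0 of 11 mesothelial, 3 of 4 epididymis, 0 of 10 testis and 2 of 4 skeletal muscle markers had a positive difference. The 1 that passed was the stromal marker Dpt, which rose. The macrophage markers went in opposite directions in the surgeries. After sham surgery 0 of 9 had a positive difference (median log2 difference −0.10), and after sDVX 9 of 9 did (median 0.39). All adipocyte, stromal, endothelial and macrophage markers had counts in every library. The part of these cell types in the collagen differences was not tested.

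SHU9119 after sham surgery, in mice with an intact vagus, gave 0 collagen calls in either direction, as against 0.0959% of all genes higher and 0.0180% lower. At an unadjusted p under 0.05, 14 collagen genes were higher and 4 lower, against 11.0% and 8.67% of all genes. Col6a2 averaged 526 ± 113 CPM in Sham_SHU and 271 ± 22.7 in Sham_Veh, a log2 difference of 0.96 ± 0.175 (SE; edgeR adjusted p = 0.0597). Col6a1 followed at 0.68 ± 0.129 (edgeR adjusted p = 0.0597), Col5a3 at 1.43 ± 0.306 and Col15a1 at 1.23 ± 0.265 (each edgeR adjusted p = 0.0687).

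The Sham_SHU libraries lay wholly above the Sham_Veh libraries for 9 collagen genes, namely Col4a2, Col5a1, Col5a2, Col5a3, Col6a1, Col6a2, Col6a3, Col8a1 and Col15a1, and wholly below for 0. Of all genes 5.60% and 4.82% did so. Col8a1, a network chain made by vessel wall cells, was the only one of the 9 with a low level, at 15.6 ± 2.18 CPM against 11.7 ± 1.51 (SD, n = 4). Other tools called more: DESeq2's Wald test called 9 collagen genes higher and 0 lower (4.91% and 2.31% of all genes) and limma-voom 10 higher and 8 lower (12.7% and 10.5%). By edgeR, 5 collagen genes were called higher and 0 lower without Sham_SHU3 (4.42% and 1.41% of all genes). Without VX_Veh1 the counts were 7 and 0 (2.44% and 0.673%), and without VX_SHU3 5 and 0 (0.847% and 0.200%).

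**Figure D2:**
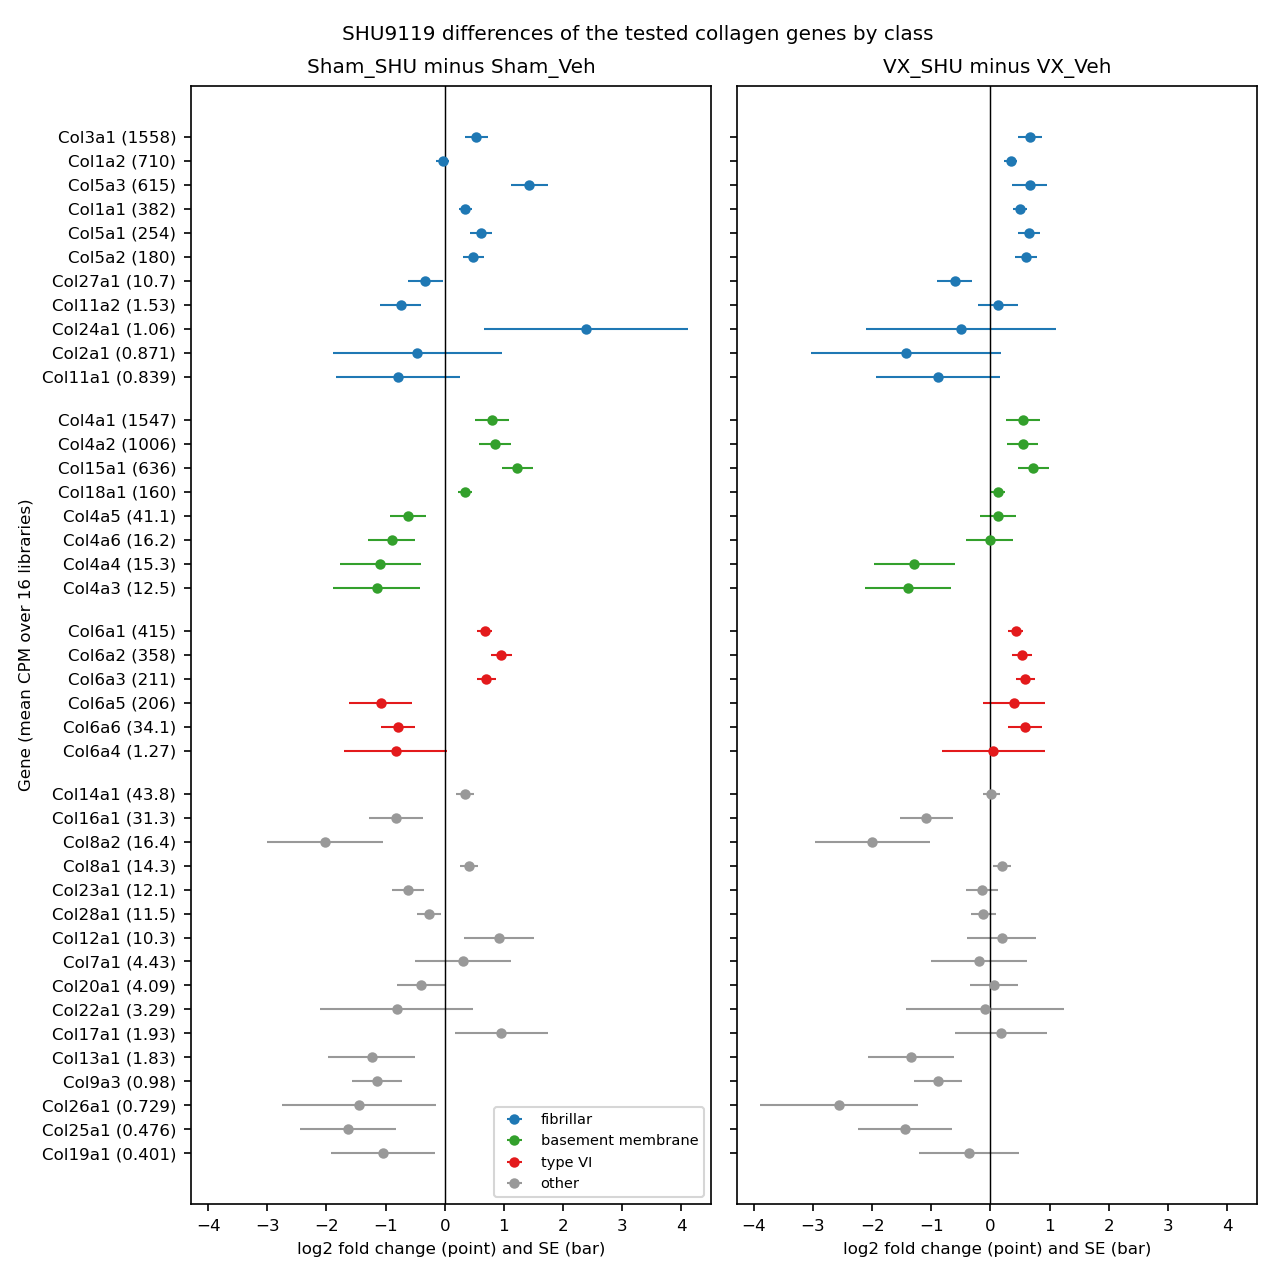
Log2 fold change (horizontal axis) with its SE for each of the 41 tested collagen genes, for SHU9119 after sham surgery (left) and after sDVX (right), in 4 classes and in order of mean CPM, which stands in parentheses. The abundant genes at the top of the fibrillar, basement membrane and type VI classes lie right of 0 in both panels, with the exception of Col1a2 (−0.04) and Col6a5 (−1.09) after sham surgery, and no single point passed the test.

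SHU9119 after sDVX also gave 0 collagen calls, against 0.00599% of all genes higher and 0.00% lower. At an unadjusted p under 0.05, 10 collagen genes were higher and 2 lower, against 5.48% and 6.16% of all genes. Col1a1 averaged 462 ± 28.4 CPM in VX_SHU and 327 ± 28.6 in VX_Veh (SD, n = 4), a log2 difference of 0.50 ± 0.113 (SE; edgeR adjusted p = 0.396). Col6a3 followed at 0.59 ± 0.166 (edgeR adjusted p = 0.427). The smallest p-values belonged to Col6a2 and Col6a1 after sham surgery and to Col1a1 and Col6a3 after sDVX.

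The VX_SHU libraries lay wholly above the VX_Veh libraries for Col1a1, Col1a2, Col3a1, Col5a1, Col5a2, Col6a1, Col6a2 and Col6a3, 8 genes against 2.93% of all genes. They lay wholly below for 1 gene, Col9a3 (2.03% of all genes). Within both surgeries the groups were apart for 5 collagen genes, Col5a1, Col5a2, Col6a1, Col6a2 and Col6a3, as for 0.617% of all genes. DESeq2's Wald test called 1 collagen gene higher after sDVX, Col1a1, and 0 lower (0.300% and 0.0240% of all genes), and limma-voom called 0.

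Whether SHU9119 acted differently in the 2 surgeries was asked by the interaction, the sDVX difference minus the sham difference. It gave 0 collagen calls, as over all genes (0.00% in each direction), and 2 collagen genes at an unadjusted p under 0.05, both positive (3.33% of all genes, and 1.43% for negative values). DESeq2 and limma-voom also called 0. Col6a6 averaged 42.7 ± 9.89 CPM in Sham_Veh and 24.8 ± 9.26 in Sham_SHU but 27.6 ± 6.31 in VX_Veh and 41.3 ± 11.1 in VX_SHU (SD, n = 4). Its difference was −0.78 ± 0.286 after sham surgery and 0.58 ± 0.285 after sDVX, an interaction of 1.36 ± 0.404 (SE, log2; edgeR adjusted p = 0.957). Col6a5 had the same pattern of signs, with an interaction of 1.49 ± 0.742 (edgeR adjusted p = 0.999).

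Col1a2 was the other, at 820, 747, 671 and 589 CPM in Sham_Veh, 576, 691, 765 and 723 in Sham_SHU, 659.7, 690.3, 600.4 and 598 in VX_Veh, and 855.5, 819, 722.5 and 833 in VX_SHU. Its groups overlapped after sham surgery and were apart after sDVX, and its interaction was 0.38 ± 0.160 (SE, log2; edgeR adjusted p = 0.999). For Col5a3 the interaction was −0.77 ± 0.425, with a 95% interval from −1.68 to 0.14. For Col15a1 it was −0.51 ± 0.369, with a 95% interval from −1.30 to 0.28, for Col1a1 0.15 ± 0.159 and for Col5a2 0.12 ± 0.254. For Col6a1, Col6a2, Col6a3, Col5a1 and Col3a1 it ran from −0.42 to 0.13, with SEs of 0.182 to 0.278.

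sDVX by itself, compared under vehicle, gave 0 collagen calls, as over all genes (0.00% in each direction). At an unadjusted p under 0.05, 0 collagen genes were higher and 3 lower, Col5a2, Col22a1 and Col6a6, against 1.64% and 6.36% of all genes. Col5a2 averaged 121 ± 35.4 CPM in VX_Veh and 173 ± 18.8 in Sham_Veh (SD, n = 4), a log2 difference of −0.51 ± 0.180 (SE; edgeR adjusted p = 0.608), and was the only collagen gene whose VX_Veh libraries lay wholly below the Sham_Veh libraries (2.16% of all genes, with 0 collagen genes wholly above against 0.935%). DESeq2 and limma-voom also called 0. Col22a1, a collagen of tissue junctions, stood at 0.992, 0.692, 0.330 and 28.5 CPM in Sham_Veh, 0.759, 3.17, 13.1 and 0.303 in Sham_SHU, 0.392, 0.313, 1.31 and 0.538 in VX_Veh, and 0.177, 0.901, 0.726 and 0.573 in VX_SHU. Its log2 difference under vehicle was −3.57 ± 1.43 (SE), and between −4.18 and −0.049 in the fits that left out 1 library.

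Under SHU9119, sDVX again gave 0 collagen calls (0.00% of all genes in each direction), with 5 collagen genes higher and 5 lower at an unadjusted p under 0.05 (5.11% and 5.54%). Col6a2 was lower in VX_SHU (376 ± 84.8 CPM, SD, n = 4) than in Sham_SHU (526 ± 113), by a log2 difference of −0.48 ± 0.174 (SE; edgeR adjusted p = 0.445). Col6a6 was higher, by 0.73 ± 0.286 (edgeR adjusted p = 0.462). The groups overlapped for all 41 collagen genes (3.20% of all genes lay wholly above and 2.44% wholly below). DESeq2 called 0 in each direction (0.414% of all genes higher and 0.144% lower), and limma-voom called 2 higher and 2 lower (2.12% and 2.55%). Averaged over the infusions, 0 collagen genes passed (0.00% of all genes in each direction). With 1 higher and 7 lower at an unadjusted p under 0.05 (5.16% and 10.8% of all genes), the smallest p was that of Col5a2 (−0.45 ± 0.127, edgeR adjusted p = 0.224). DESeq2 called 0 collagen genes higher and 2 lower here (0.563% and 1.89% of all genes), and limma-voom 0 in each direction (0.336% each). The SHU9119 and sDVX comparisons share their groups, so that Sham_SHU libraries enter both the sham comparison and this one.

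Levels of different genes were compared per kilobase of exon. Col4a1 was the highest collagen gene at a mean of 207 CPM per kb over the 16 libraries, before Col3a1 (159), Col4a2 (152), Col15a1 (100.1), Col6a1 (94.8) and Col5a3 (90.3). Col1a1 (58.2) and Col1a2 (57.1) followed. With the longest transcript as the length, Col3a1 came first at 280.1 CPM per kb, then Col4a1 at 234, Col4a2 at 156 and Col1a2 at 133. The merged exons span 12426 bases in Col1a2 and 9816 in Col3a1, against 5348 and 5564 in the longest transcript.

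Basement membrane genes made up 43.0% of the summed collagen level per kb in Sham_Veh, 47.8% in Sham_SHU, 40.9% in VX_Veh and 41.9% in VX_SHU, as means over 4 libraries. Fibrillar genes made up 37.7%, 36.0%, 36.9% and 38.9%, and type VI genes 16.7%, 14.9%, 17.9% and 17.3%. With the longest transcript as the length, the basement membrane share was 35.3% to 42.1% and the fibrillar share 42.1% to 46.1%, so that the order of these classes turned in 3 of the groups and was level in Sham_SHU. The share of the basement membrane class in single libraries ran from 32.8% (VX_Veh1) to 50.7% (Sham_SHU1).

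**Figure D3:**
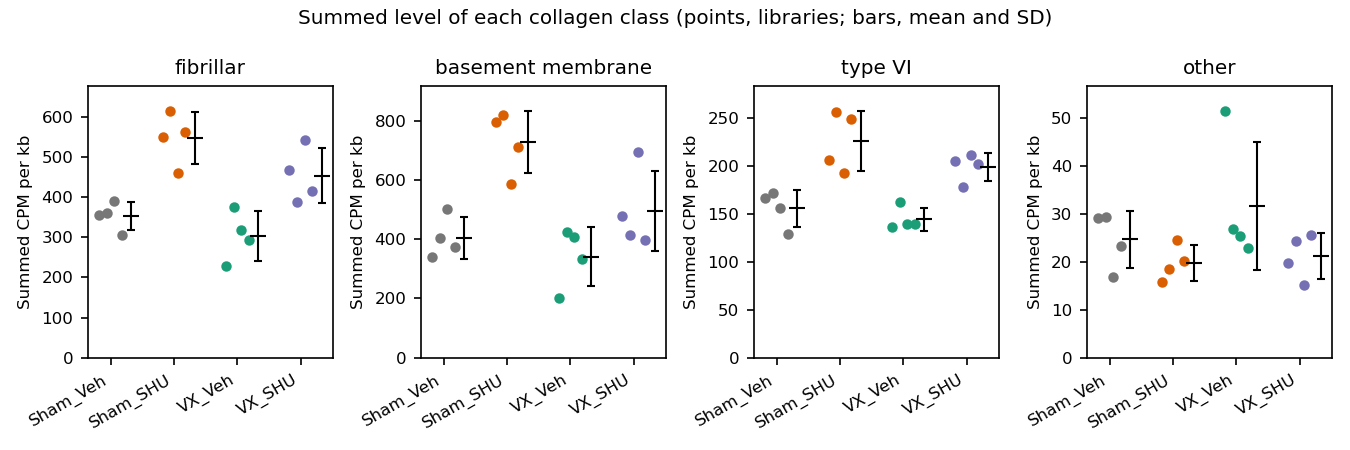
Summed level of each collagen class in CPM per kb (vertical axis, from 0), with 1 point per library in 4 groups and the mean and SD as a bar. The fibrillar sum averages 353 in Sham_Veh, 547.5 in Sham_SHU, 303 in VX_Veh and 454 in VX_SHU, and the sum of the remaining collagens is highest in VX_Veh1 at 51.6.

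The summed level per kb of fibrillar genes was 353 ± 35.7 in Sham_Veh, 547.5 ± 64.6 in Sham_SHU, 303 ± 61.3 in VX_Veh and 454 ± 68.3 in VX_SHU (SD, n = 4). That of type VI genes was 156 ± 19.3, 226 ± 31.6, 144 ± 11.9 and 199 ± 14.5, and for both classes every SHU9119 library lay above every vehicle library of the same surgery. Basement membrane genes summed to 405 ± 70.4, 729.6 ± 105, 342 ± 101 and 496 ± 137. These sums are descriptions, without a test.

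The chains of a trimer did not all move in the same ratio. Within each library the ratio of Col1a1 to Col1a2 counts was 0.461 ± 0.0184 in Sham_Veh, 0.602 ± 0.0486 in Sham_SHU, 0.513 ± 0.0172 in VX_Veh and 0.573 ± 0.0297 in VX_SHU (SD, n = 4). Its lowest SHU9119 value exceeded its highest vehicle value within each surgery, at 0.537 against 0.486 after sham surgery and 0.533 against 0.530 after sDVX. The ratio also separated the surgeries under vehicle, at 0.4423 to 0.4857 in Sham_Veh and 0.4957 to 0.5305 in VX_Veh. How often ratios of other gene pairs separate the groups was not counted. A ratio within a library does not depend on scaling to library size.

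The ratio of Col5a3 to Col5a1 was 1.79 ± 0.198 in Sham_Veh and 3.14 ± 0.612 in Sham_SHU, with no overlap, but 2.15 ± 0.253 in VX_Veh and 2.14 ± 0.454 in VX_SHU. Col6a1 to Col6a2 was 1.25 ± 0.0622 in Sham_Veh and 1.04 ± 0.0812 in Sham_SHU, again with no overlap, and 1.29 ± 0.0814 and 1.21 ± 0.133 after sDVX. Col4a1 to Col4a2, from the pair on chromosome 8, stayed within 1.31 to 1.76 over all libraries. Its mean was 1.62 in Sham_Veh and 1.58 in Sham_SHU, and 1.43 in VX_Veh and 1.47 in VX_SHU. Under SHU9119 the surgeries narrowly did not overlap, at 1.551 to 1.628 in Sham_SHU and 1.414 to 1.55 in VX_SHU.

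**Figure D4:**
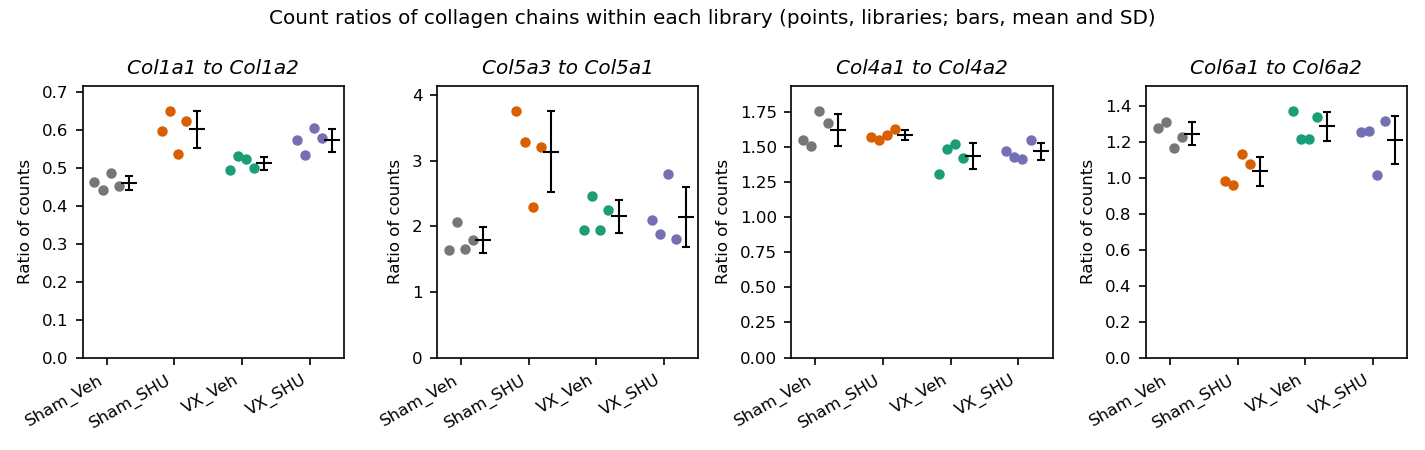
Ratio of the counts of pairs of collagen chains in each library (vertical axis, from 0), with 1 point per library in 4 groups and the mean and SD as a bar. Col1a1 to Col1a2 is higher in the SHU9119 libraries of both surgeries, and under vehicle higher in VX_Veh than in Sham_Veh. Col5a3 to Col5a1 and Col6a1 to Col6a2 separate the infusions after sham surgery, and Col4a1 to Col4a2 overlaps between the infusions.

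Several low collagen genes varied widely between single libraries, with a ratio of the highest to the lowest of 160.7 for Col22a1 and 55.4 for Col8a2. Others did not, such as Col14a1 (1.76), Col28a1 (1.86) and Col8a1 (1.93), and the abundant Col6a5 had a ratio of 12.2. Of the 41 tested genes, 10 were highest in VX_Veh1, 9 in Sham_SHU2 and 5 in Sham_Veh4. Col8a2 stood at 32.0, 30.6, 2.40 and 4.60 CPM in Sham_Veh, 1.80, 1.52, 7.65 and 6.15 in Sham_SHU, 84.5, 26.9, 22.1 and 6.88 in VX_Veh, and 6.60, 19.7, 1.66 and 7.10 in VX_SHU. Its 5 highest libraries were VX_Veh1, Sham_Veh1, Sham_Veh2, VX_Veh2 and VX_Veh3, and the cilia markers were at 266 CPM or more in each of these. Sham_Veh4 also had a cilia sum of 287 CPM, but its Col8a2 level was only 4.60 CPM. Col16a1 stood at 44.7, 50.5, 15.8 and 28.8 CPM, 13.0, 18.3, 28.4 and 19.3 CPM, 97.1, 37.8, 33.3 and 23.2 CPM, and 19.0, 30.8, 14.5 and 26.0 CPM in the same order of groups.

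Col4a3 and Col4a4, chains of the basement membranes of kidney and other epithelia, were also highest in VX_Veh1, at 51.5 and 54.5 CPM, and lowest in Sham_SHU2, at 2.64 and 3.17 CPM. The ratio of their counts averaged 0.755 to 0.814 in the 4 groups, and in single libraries ran from 0.648 (VX_SHU3) to 0.944 (VX_Veh1). VX_Veh1 also had the highest cilia sum (1112 CPM), the highest mesothelial sum (679 CPM) and the lowest adipocyte sum (18010 CPM), and it was the lowest library for Col4a1, Col4a2, Col15a1, Col5a1, Col5a2, Col5a3, Col3a1 and Col6a3. The mesothelial list includes keratin genes, which reached the highest levels in it, up to 341 CPM for Krt8 and 185 CPM for Krt18. Its highest gene other than a keratin was Upk3b, at up to 48.7 CPM. Which cells gave the keratin counts was not tested. The averaged SHU9119 comparison without VX_Veh1 again called the same 9 collagen genes. Leaving out certain other single libraries, such as Sham_Veh3, gave 0, as stated above.

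These next genes were chosen after their values were seen. Col7a1, which anchors epithelia to the tissue below, stood at 15.5 CPM in VX_Veh4 and 15.1 CPM in VX_SHU4, and at 1.44 to 5.95 CPM in the other libraries. Col24a1 reached 5.50 CPM in VX_Veh4, 3.68 in Sham_SHU4 and 3.40 in VX_SHU4, and 0 to 1.99 CPM elsewhere. These 3 libraries had the highest epididymis sums, 9687, 3218 and 10330 CPM. Col22a1 (28.5 CPM), Col2a1 (6.00 CPM) and Col6a4 (5.42 CPM) were highest in Sham_Veh4, which had the highest testis sum, and next in Sham_SHU3 at 13.1, 4.75 and 2.69 CPM. The part of these tissues in the levels of the low collagen genes was not tested.

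Col14a1, a fibril-associated chain and the highest of the remaining collagens per kb (6.24 CPM per kb), had none of these patterns. It stood at 40.4, 35.7, 41.6 and 39.6 CPM in Sham_Veh, 37.8, 60.3, 48.9 and 52.9 in Sham_SHU, 46.3, 44.7, 45.4 and 34.2 in VX_Veh, and 41.1, 37.3, 39.2 and 55.1 in VX_SHU. The groups overlapped in every comparison, and its averaged SHU9119 difference was 0.18 ± 0.106 (SE, log2; edgeR adjusted p = 0.272).

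**Figure D5:**
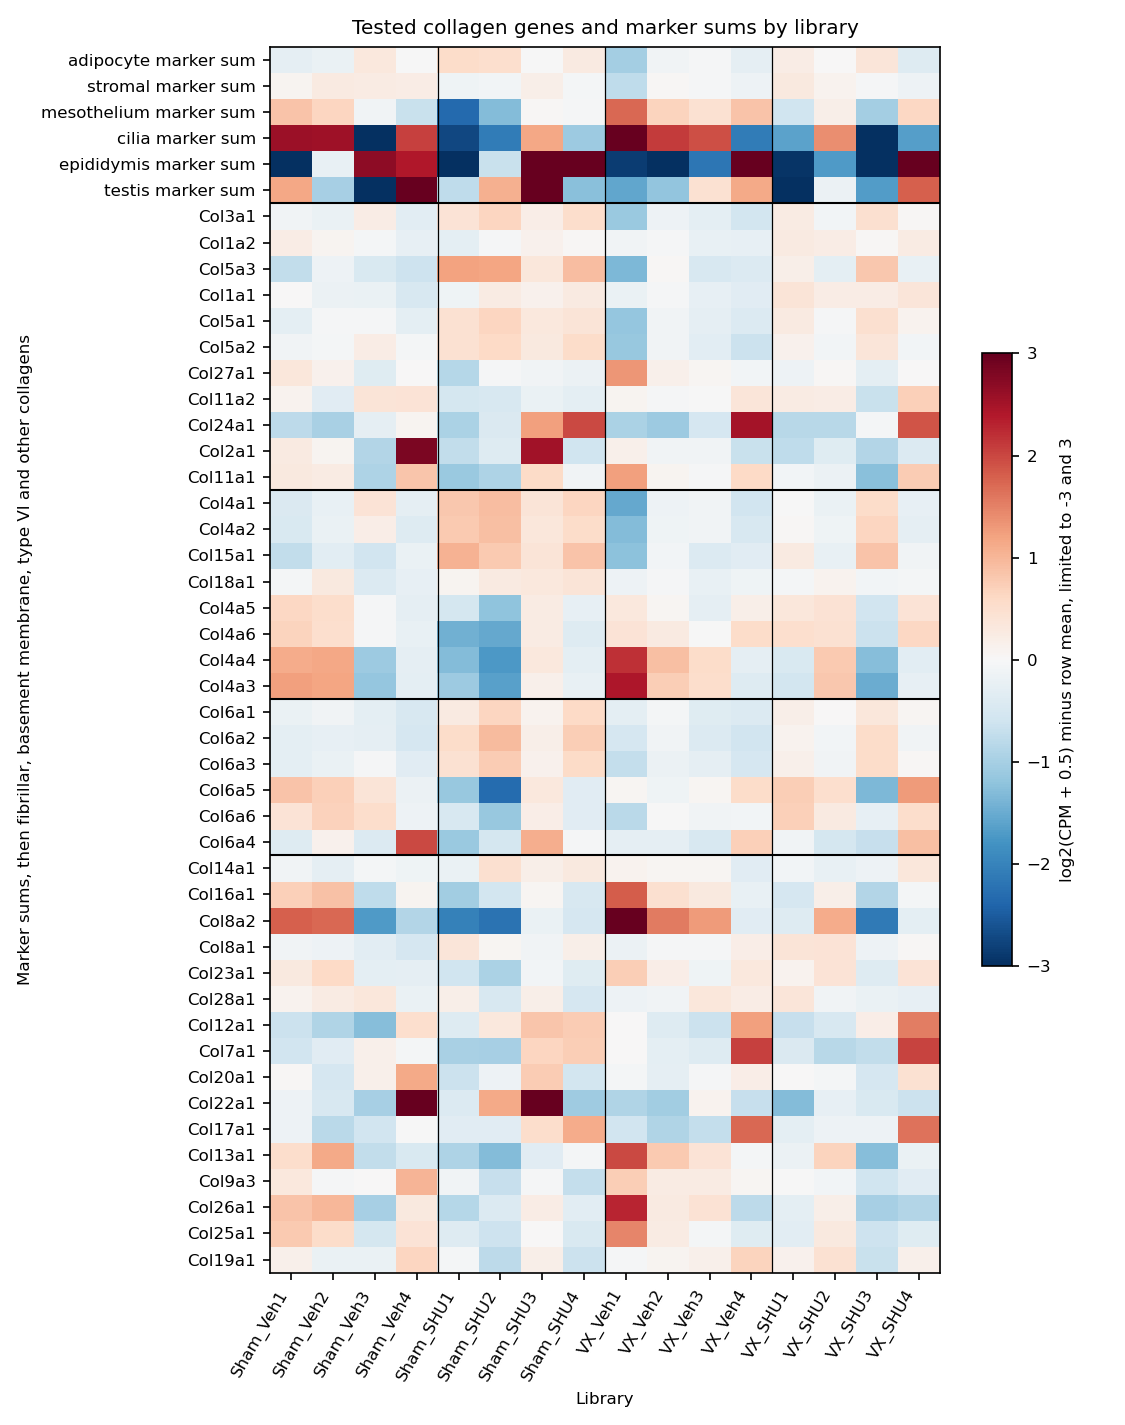
Log2(CPM + 0.5) minus the row mean, as color limited to −3 and 3, for 6 marker sums and the 41 tested collagen genes (rows, by class) in the 16 libraries (columns, by group). Col8a2, Col16a1, Col4a3 and Col4a4 are highest in VX_Veh1, where the cilia sum is also highest and Col4a1, Col4a2 and Col3a1 are lowest.

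Collagen chains are hydroxylated and folded in the endoplasmic reticulum, trimmed outside the cell and then crosslinked, and the genes for these steps were counted in the averaged SHU9119 comparison. Of 18 tested genes for chain modification and folding, 2 rose and 0 fell, where 1.50% of all genes rose and 0.366% fell. Serpinh1, which encodes the collagen chaperone HSP47, averaged 557 CPM with SHU9119 and 303.5 CPM with vehicle, a log2 rise of 0.85 ± 0.178 (SE; edgeR adjusted p = 0.0386). P3h1, a prolyl hydroxylase of collagen, rose by 0.44 ± 0.0912 (edgeR adjusted p = 0.0384). The median difference of the 18 was 0.11, against −0.03 over all genes.

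Of 7 genes for propeptide removal, 1 rose, Adamts2, the N-propeptidase of fibrillar collagens, by 0.58 ± 0.0903 (SE, log2; edgeR adjusted p = 0.0218). Adamts14, a related enzyme, differed by 0.23 ± 0.108 (edgeR adjusted p = 0.175). Of 5 crosslinking enzymes 1 rose, Lox (0.49 ± 0.0937, edgeR adjusted p = 0.0334), while Loxl2 differed by 0.46 ± 0.137 (edgeR adjusted p = 0.0748). Of 8 fibril-binding proteoglycans 1 rose, Aspn (0.46 ± 0.103, edgeR adjusted p = 0.0461), and Bgn, the biglycan gene, differed by 0.29 ± 0.0766 (edgeR adjusted p = 0.0626). In each of these lists 0 genes fell, where 1.50% of all genes rose and 0.366% fell. The median differences were 0.019 for propeptide removal, 0.345 for crosslinking and −0.0148 for the proteoglycans.

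Of 11 non-collagen basement membrane partners 4 rose and 0 fell (1.50% and 0.366% of all genes). Nid2 and Nid1, the nidogens that join laminin to type IV collagen, rose by 0.81 ± 0.147 and 0.56 ± 0.122 (SE, log2; edgeR adjusted p = 0.0318 and 0.0421). Sparc, which binds collagen, and Hspg2, which encodes perlecan, were the others, at 0.54 ± 0.123 and 0.64 ± 0.148 (edgeR adjusted p = 0.0461 and 0.0491). The median difference of the 11 was 0.43.

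Of 12 receptor and uptake genes 1 rose, Itgb1, the shared chain of the collagen-binding integrins (0.26 ± 0.0600, edgeR adjusted p = 0.0491), and Cspg4, a type VI collagen receptor, differed by 1.08 ± 0.265 (edgeR adjusted p = 0.0519). Of 10 genes for collagen breakdown and its inhibitors 0 passed, with Fap (0.45 ± 0.153) and Mmp14 (−0.24 ± 0.122) at the smallest p (edgeR adjusted p = 0.0927 and 0.210). Of 14 TGF-beta signalling genes 0 passed, with Tgfb1 (0.37 ± 0.105) and Tgfbr2 (0.24 ± 0.0891) at the smallest p (edgeR adjusted p = 0.0684 and 0.105). Among the receptor and uptake genes 0 fell, where 1.50% of all genes rose and 0.366% fell. The median differences were 0.0475 for receptors and uptake, −0.0305 for breakdown and its inhibitors and 0.0245 for TGF-beta signalling. None of the genes of these lists passed in either surgery alone, under sDVX or in the interaction.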

How the data were processed

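Polyadenylated RNA of gonadal fat was sequenced in 16 libraries. The deposited table holds raw counts per gene made by the authors, and bcl2fastq, TopHat, edgeR and the mm10 build are named per the submitters' processing notes. Not given in the sources used here are the counting tool, its annotation and whether strand was used. Totals ran from 20425295 to 30889052 counts, and no 2 libraries were copies. Gene numbers were matched to symbols for 24374 of 24454 genes.

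Counts were analysed in R 4.3.3 with edgeR 4.0.16: 16682 genes passed filterByExpr, TMM scaling was applied, and a robust quasi-likelihood model with 4 group means and 12 residual degrees of freedom gave 7 contrasts. The p-values were adjusted by Benjamini-Hochberg over all genes tested, with calls under 0.05. Each SE is the absolute log2 fold change divided by the square root of its F. CPM are TMM-scaled, and CPM per kb use merged GENCODE exons. The code was tested on simulated data.

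Values in every library are given for collagen genes that passed in any contrast, for the 3 highest per kb in each class and for the 2 with the smallest p in each simple contrast and the interaction, and list genes for the 2 smallest p. The other names complete a trimer, pair or count. The members, classes, lists and tests were chosen with earlier results of these data known. Alternatives were DESeq2 1.42.0 size factors and Wald test, limma-voom (limma 3.58.1), no filter, non-robust dispersion, a replicate block, a cilia covariate, and fits without single libraries or the 6 in which epididymis or testis markers reached 500 CPM.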

Additional observations from a re-analysis of the deposited data

Results flagged for a closer look

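Of 72 sets of 4 libraries (18 collagen genes in 4 groups), 4 held a library far from the other 3 by Dixon's criterion, which chance alone marks in about 1 of 20 sets. Col5a2 was at 200.6 CPM in Sham_Veh3, against 160.1 to 166 CPM in the other Sham_Veh libraries. Col14a1 was at 34.21 CPM in VX_Veh4, against 44.7 to 46.3 CPM. Col22a1 was at 28.48 CPM in Sham_Veh4, against 0.330 to 0.992 CPM, and this library had the highest testis marker sum (2604 CPM). Col6a6 was at 18.23 CPM in VX_Veh1, against 29.7 to 32.0 CPM, and this library had the highest cilia sum (1112 CPM). The part of these tissues was not tested.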

How the results depend on the processing

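For SHU9119 averaged over the surgeries, the 9 collagen calls were 9 with DESeq2 size factors and non-robust dispersion, 7 without the filter, 15 (12 higher, 3 lower) with the DESeq2 Wald test, 20 (12 and 8) with limma-voom (11.5% and 11.9% of all genes), 16 (9 and 7) without the 6 libraries with epididymis or testis markers, and 0 with the cilia covariate. They were also 0 with the cilia covariate in the 10 other libraries, an alternative added after the data were seen. Leaving out 1 library gave 0 to 11. With the replicate number as a block the count was 0, as over all genes. The labels do not say what a number marks. Same-numbered libraries correlated from −0.689 to 0.676 in their deviations from the group means, and 5 of 16 libraries correlated best with their own number, so the numbers were not taken as pairs. Of the 6 pairs numbered 4, 5 correlated over 0.1, and these 4 libraries are among the 6 with epididymis or testis markers. The cause of these shifts was not tested.

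After sham surgery the count of 0 became 9 with the DESeq2 Wald test, 18 with limma-voom and 0 to 7 without 1 library. After sDVX DESeq2 gave 1, for sDVX under SHU9119 limma-voom gave 4, and for sDVX averaged over infusions DESeq2 gave 2. Of the 9 genes, signs turned only in the added fit. There the log2 differences after sham surgery were −0.15 (Col5a1), −0.18 (Col3a1) and −0.16 (Col5a2), and after sDVX −0.16 (Col15a1) and −0.28 (Col5a3). Averaged, they were −0.042 (Col15a1), −0.037 (Col5a1), −0.033 (Col5a3), −0.055 (Col3a1) and −0.050 (Col5a2). Depth left 3 of the 44 genes untested.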

Other observations

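The 3 collagen genes too low to test were Col10a1, Col9a1 and Col9a2. Over all 16 libraries they had 86, 82 and 35 counts. Col10a1 had a count in every library, Col9a1 was at 0 in 3 libraries and Col9a2 in 1. Their highest levels were 0.423 CPM (Col10a1, VX_Veh4), 0.725 CPM (Col9a1, Sham_Veh1) and 0.269 CPM (Col9a2, VX_Veh4).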
